A study of Rattus norvegicus with 6 samples.

Results

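Matrix metalloproteinases and their inhibitors were described here as 10 genes of the deposited rat table of 34257, chosen by matching their gene names: the inhibitors Timp1, Timp2 and Timp3, the proteases Mmp2, Mmp3, Mmp9, Mmp11 and Mmp14, and the secreted proteoglycan-cutting proteases Adamts1 and Adamts4. Each name matched 1 row. The cells were cultured ventricular cardiomyocytes of newborn rats, with 3 vehicle libraries and 3 made after 24 h in 1 µM perhexiline. Perhexiline, used against angina, blocks the carnitine palmitoyltransferase step by which long-chain fatty acids enter mitochondria. No strain, genotype or sex was given, no allele or agent other than the drug was named, and separate cultures or animals behind the replicates were not stated, so the p-values reflect the spread among these libraries alone, part or all of which may be technical.

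Matrix metalloproteinases are zinc enzymes that are made as inactive precursors and cut collagens, gelatins, proteoglycans and other proteins outside the cell. Tissue inhibitors of metalloproteinases (TIMPs) bind the active enzymes, and TIMP2 also bridges the precursor of MMP2 to the membrane-bound MMP14, which activates it. In the heart these proteins are made largely by fibroblasts as well as by muscle cells, and their balance is followed in remodelling after injury.

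With perhexiline, Timp1, Mmp2 and Mmp3 rose and Timp3 fell. Timp2, Mmp14, Mmp9 and Adamts1 did not pass the test, Adamts4 lay under the filter on low values and was not tested, and Mmp11 was listed at 0 in all 6 libraries. The test was limma on log2(FPKM + 1) for the 13460 genes with at least 1 FPKM in at least 3 libraries. FPKM is fragments per kilobase of gene length, scaled per library. Calls were at 0.05 after Benjamini-Hochberg adjustment over all genes tested. On this rule 6.66% of the tested genes were called, 3.55% higher and 3.11% lower, and 4 of the 8 tested genes of the set were called. Mmp3 reached 1 FPKM only in the perhexiline libraries, so it passed the filter through the group in which it was high, and the count is given as a description. The libraries of both groups did not overlap for 6 of the 8, against 31.9% of all tested genes.

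The regions just around the transcription starts of the 3 called genes found in RefSeq's promoter table are shown first, because AP-1, a dimer of FOS and JUN proteins, and PEA3, an ETS-family factor, are textbook regulators of Mmp3 and Timp1, and AP-1 and ETS genes are on a list described further on. Each window runs 5′ to 3′ from 250 bases before to 50 after the start, in build GRCr8. Timp1 is at chrX:3771073-3771372 on the minus strand, Mmp3 at chr8:12925031-12925330 on the plus strand and Timp3 at chr7:19459509-19459808 on the minus strand. Capitals mark every match to the motifs searched.
Timp1: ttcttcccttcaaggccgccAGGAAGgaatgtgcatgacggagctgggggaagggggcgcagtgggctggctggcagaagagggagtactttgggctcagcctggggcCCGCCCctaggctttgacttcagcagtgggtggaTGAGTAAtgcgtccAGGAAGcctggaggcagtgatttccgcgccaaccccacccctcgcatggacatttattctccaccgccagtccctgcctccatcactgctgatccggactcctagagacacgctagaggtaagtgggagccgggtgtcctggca
Mmp3: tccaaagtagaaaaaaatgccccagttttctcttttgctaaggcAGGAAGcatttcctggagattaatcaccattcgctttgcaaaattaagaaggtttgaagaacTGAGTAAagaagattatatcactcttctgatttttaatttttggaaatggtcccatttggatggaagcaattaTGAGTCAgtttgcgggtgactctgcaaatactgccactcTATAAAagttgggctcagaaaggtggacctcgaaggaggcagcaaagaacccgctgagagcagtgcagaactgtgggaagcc
Timp3: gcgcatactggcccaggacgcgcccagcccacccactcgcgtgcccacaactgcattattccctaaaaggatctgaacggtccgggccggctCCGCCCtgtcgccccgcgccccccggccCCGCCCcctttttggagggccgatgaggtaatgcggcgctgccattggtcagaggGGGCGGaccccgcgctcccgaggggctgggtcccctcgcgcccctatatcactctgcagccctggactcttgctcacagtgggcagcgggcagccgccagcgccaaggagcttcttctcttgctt

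The AP-1 motif was searched as TGANTCA. A variant of it was searched as TGAGTAA. The PEA3 motif was searched as AGGAAG, and the GC box was searched as GGGCGG. The cyclic AMP response element, CRE, was searched as TGACGTCA, and the STAT motif as TTCNNNGAA. These and the NF-kB motif were searched on both strands, and the TATA box was searched as TATAAA on the forward strand. No motif overlapped another in these windows. Of the 10 genes, 7 had a window in the table; Mmp2, Mmp9 and Mmp14 had none. The Mmp3 window held the AP-1 motif from base -71, counted from the start site, its variant from -144, PEA3 from -206 and TATA from -32. The Timp1 window held the variant from -108, PEA3 from -230 and -94, and a GC box from -142 on the reverse strand. The Timp3 window held 3 GC boxes. Of 33469 promoter windows of the same length, 7.33% held the AP-1 motif, 2.90% its variant, 34.5% PEA3, 8.80% TATA, 33.1% a GC box, 8.87% STAT, 1.83% CRE and 4.18% NF-kB. Among the 7 windows the AP-1 motif was in that of Mmp3 alone and the variant in those of Mmp3 and Timp1. PEA3 was in those of Mmp3, Timp1 and Adamts4, TATA in those of Mmp3 and Adamts1, and STAT in that of Adamts4. A GC box was in 5, those of Timp1, Timp2, Timp3, Adamts1 and Mmp11. No window of the 7 held the CRE or NF-kB motif in these letters. These matches describe letters and show no binding.

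Of the 3 inhibitors, Timp1 rose, Timp3 fell, and Timp2, with a difference below 0, did not pass. Timp1, a secreted inhibitor that is also known as a growth-promoting and injury-induced protein (ENSRNOG00000010208, chromosome X, 1364786 to 1369384 in the deposited table, whose build is not named, minus strand), stood at 73.8, 66.5 and 69.0 FPKM in vehicle libraries 1, 2 and 3 and at 98.7, 93.3 and 89.2 FPKM in perhexiline libraries 1, 2 and 3. The perhexiline libraries were all higher, with no overlap. The means were 69.7 ± 3.71 and 93.7 ± 4.75 FPKM (SD, n = 3 per group, as throughout), 1.34-fold, with a difference of 0.42 ± 0.059 on the log2(FPKM + 1) scale (SE; limma adjusted p = 0.0160).

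Timp3, the inhibitor that stays bound to the matrix and also blocks ADAM and ADAMTS enzymes (ENSRNOG00000004303, chromosome 7, 23544215 to 23594133, minus strand), stood at 32.7, 33.2 and 33.7 FPKM with vehicle and at 29.1, 25.8 and 28.3 FPKM with perhexiline. All 3 perhexiline libraries were lower, and the vehicle libraries lay within a narrow range. The means were 33.2 ± 0.473 and 27.7 ± 1.73 FPKM, 0.835-fold (log2 difference -0.25 ± 0.058; limma adjusted p = 0.0449).

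Timp2 was the most abundant inhibitor transcript (ENSRNOG00000003148, chromosome 10, 107338465 to 107386072, minus strand). It stood at 246, 260.3 and 271 FPKM with vehicle and 242, 225 and 245 FPKM with perhexiline. The lowest vehicle library was just above the highest perhexiline library, and the gene did not pass (means 259 ± 12.5 and 237 ± 10.6 FPKM, log2 difference -0.13, 95% interval -0.26 to 0.01, limma adjusted p = 0.209). The order of levels in each library was Timp2, Timp1, Timp3.

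Timp1 made up 18.5% to 20.9% of the summed FPKM of these 3 inhibitors with vehicle and 24.6% to 27.1% with perhexiline, while the sum itself was 362 ± 10.7 and 359 ± 13.1 FPKM. The share of Timp2 went from 71.5% ± 1.53 to 66.1% ± 1.24 and that of Timp3 from 9.18% ± 0.142 to 7.73% ± 0.205. Within a library, the log2(FPKM + 1) of Timp1 minus that of Timp3 was 1.05 ± 0.090 with vehicle and 1.72 ± 0.095 with perhexiline, 0.68 apart. The same difference against Timp2 moved by 0.55, and that of Timp2 against Timp3 by 0.13. For each of these 3 pairs the exact permutation test, two-sided, gave p = 0.1, also after adjustment over the 3 pairs, which is the smallest p that 3 against 3 libraries allow, so the design could not pass 0.05.

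The deposited intervals of these inhibitors overlap other genes: Timp1 lies within Syn1 and Timp3 within Syn3, both synapsin genes on the opposite strand, and Timp2 overlaps Cep295nl on its own strand. The kit marked the strand, but its use in counting was not stated, so reads of such neighbours could not be told apart. Each neighbour was low, with mean levels of 0.298 and 0.352 FPKM for Syn1, 0.223 and 0.210 for Syn3 and 0.444 and 0.755 for Cep295nl (vehicle, then perhexiline). The other 7 genes overlap no other gene of the table.

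**Figure D1:**
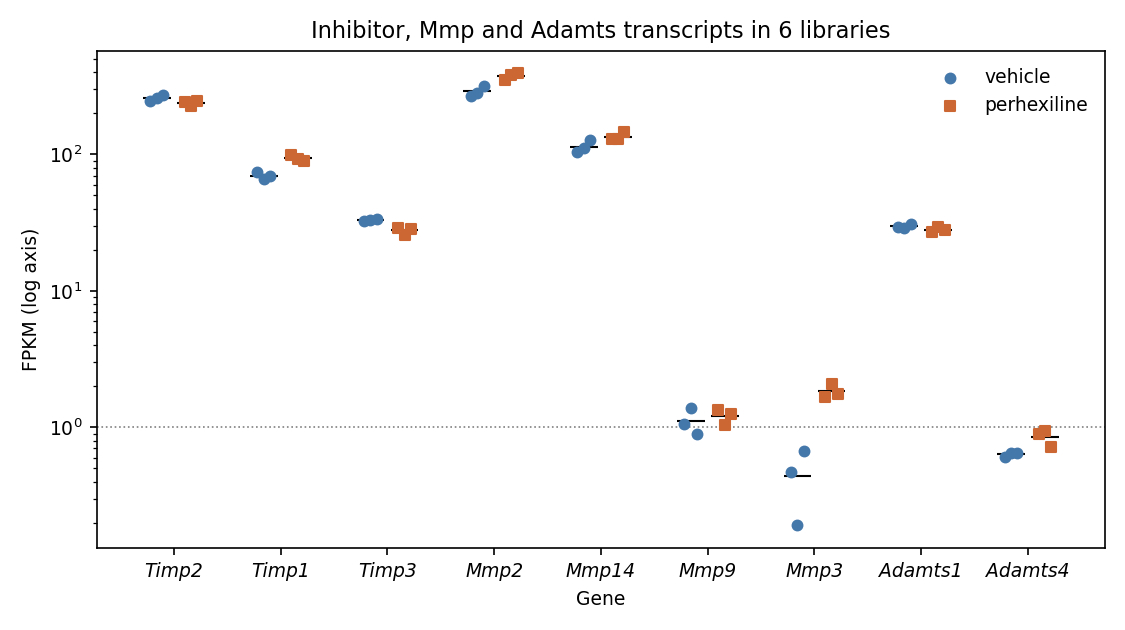
FPKM of 9 of the 10 genes in each library on a log axis, with vehicle libraries as circles, perhexiline libraries as squares, group means as black bars and 1 FPKM as a dotted line. Mmp11, listed at 0, cannot be drawn. Mmp3 is seen to move from below to above the dotted line, while most other genes shift little against the span of levels.

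Mmp2, the gelatinase that cuts denatured and basement membrane collagen, was the most abundant transcript of the set (ENSRNOG00000016695, chromosome 19, 15542765 to 15570611, minus strand). It stood at 269, 283 and 316 FPKM with vehicle and 349.7, 382 and 393 FPKM with perhexiline. The highest vehicle library lay below the lowest perhexiline library. The means were 289 ± 24.2 and 375 ± 22.4 FPKM, 1.30-fold (log2 difference 0.37 ± 0.074; limma adjusted p = 0.0329).

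Mmp14, the membrane-bound collagenase that activates the MMP2 precursor (ENSRNOG00000010947, chromosome 15, 33074441 to 33083655, plus strand), stood at 103, 111 and 127 FPKM with vehicle and 129.8, 129 and 147 FPKM with perhexiline. The groups did not overlap, although vehicle library 3 lay close to the perhexiline libraries. The means were 114 ± 12.3 and 135 ± 9.94 FPKM, and the gene did not pass (log2 difference 0.25, 95% interval 0.04 to 0.45, limma adjusted p = 0.128).

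Mmp3, stromelysin 1, cuts proteoglycans, laminin and fibronectin and activates other MMP precursors (ENSRNOG00000032626, chromosome 8, 5676665 to 5698579, plus strand). It stood at 0.468, 0.191 and 0.670 FPKM with vehicle and at 1.66, 2.09 and 1.75 FPKM with perhexiline, which rest on 11, 5 and 16 fragments and on 49, 56 and 52 fragments. All 3 perhexiline libraries were above all vehicle libraries. The means were 0.443 ± 0.240 and 1.83 ± 0.227 FPKM, 4.13-fold, and the log2(FPKM + 1) difference of 0.98 ± 0.16 (limma adjusted p = 0.0220) understates a change at so low a level. It was 1.93 with a pseudocount of 0.1 and 2.16 with limma-voom on recovered fragments. From the summed fragments, 32 and 157, the ratio was 4.18 with an exact 95% interval of 2.85 to 6.33, which covers counting error only.

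Mmp9, the other gelatinase, which leukocytes make in quantity (ENSRNOG00000017539, chromosome 3, 161413298 to 161421520, plus strand), stood at 1.06, 1.39 and 0.885 FPKM with vehicle and 1.34, 1.03 and 1.26 FPKM with perhexiline. These values overlapped throughout (log2 difference 0.07, 95% interval -0.26 to 0.39, limma adjusted p = 0.792). With 152 and 193 fragments in the summed groups, the ratio was 1.08 with an exact 95% interval of 0.871 to 1.35. Mmp11, stromelysin 3 (ENSRNOG00000028344, chromosome 20, 13670066 to 13678089, plus strand), was listed at 0 in every library. Whether a listed 0 stands for no reads or for a gene that could not be counted was not stated, so no level is drawn from it.

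Adamts1, which cuts versican and other proteoglycans (ENSRNOG00000001607, chromosome 11, 25342126 to 25350974, minus strand), stood at 29.4, 28.7 and 31.0 FPKM with vehicle and 27.1, 29.3 and 28.1 FPKM with perhexiline. The groups overlapped (log2 difference -0.08, 95% interval -0.20 to 0.05, limma adjusted p = 0.422). Adamts4, an aggrecanase (ENSRNOG00000003538, chromosome 13, 89622632 to 89634419, plus strand), stood at 0.606, 0.650 and 0.647 FPKM with vehicle and 0.892, 0.937 and 0.712 FPKM with perhexiline, from 154 and 240 fragments in the summed groups. Its groups did not overlap, and the ratio of summed fragments was 1.33 (exact 95% interval 1.08 to 1.64, counting error only). It stayed under 1 FPKM in every library. With no filter it did not pass (limma adjusted p = 0.360, and 0.317 with limma-voom).

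**Figure D2:**
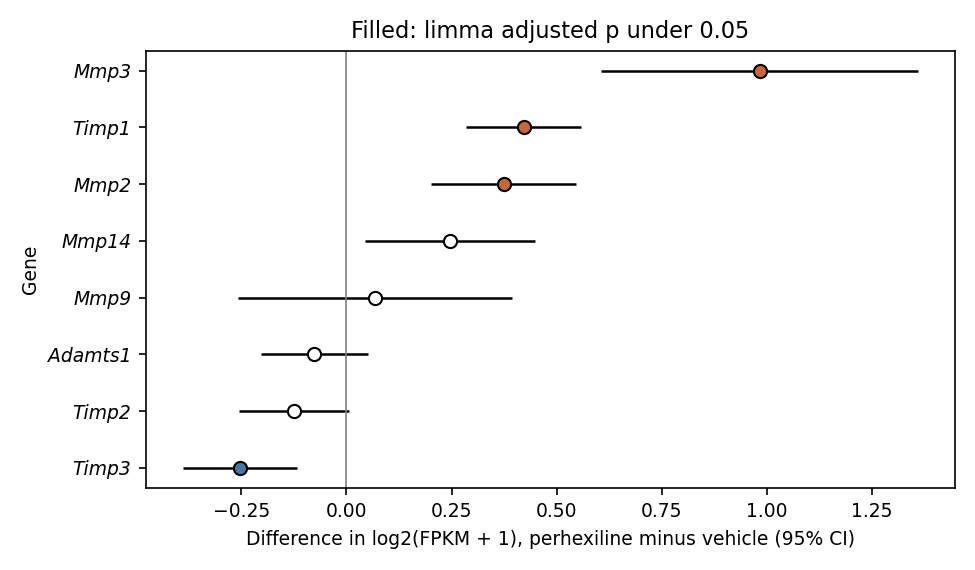
Difference in log2(FPKM + 1), perhexiline minus vehicle, for the 8 tested genes, with 95% intervals from limma; filled points passed an adjusted p of 0.05. Mmp3 (0.98), Timp1 (0.42) and Mmp2 (0.37) lie above 0 and Timp3 (-0.25) below it, and the intervals of Mmp9, Adamts1 and Timp2 include 0.

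The levels set the genes apart more than the drug did. In the vehicle libraries Mmp2 and Timp2 lay above 98.4% and 98.2% of the tested genes, Mmp14 above 95.3%, Timp1 above 91.7%, Timp3 above 80.9% and Adamts1 above 78.4%. Mmp9 lay above 3.27% of them. The mean levels of Mmp2 and Timp2 in vehicle, 289 and 259 FPKM, were neighbours whose libraries overlapped (269 to 316 and 246 to 271), as were those of Timp3 and Adamts1 in perhexiline (25.8 to 29.1 and 27.1 to 29.3). FPKM is per gene length, so these levels can be set side by side.

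The ratio of Mmp2 to Timp2, as FPKM within a library, was 1.09, 1.09 and 1.17 with vehicle and 1.45, 1.70 and 1.61 with perhexiline. That of Mmp14 to Timp2 was 0.421, 0.426 and 0.471 against 0.537, 0.573 and 0.599. In both ratios every perhexiline library was above every vehicle library. The summed FPKM of the 5 Mmp genes of the set was 405 ± 36.5 and 513 ± 29.9, of which Mmp2 was the largest part, and its ratio to the 3 Timp genes was 1.12 ± 0.068 and 1.43 ± 0.11. These ratios are of transcripts chosen with the results known, so they carry no test, and protein and enzyme activity were not measured in these libraries.

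**Figure D3:**
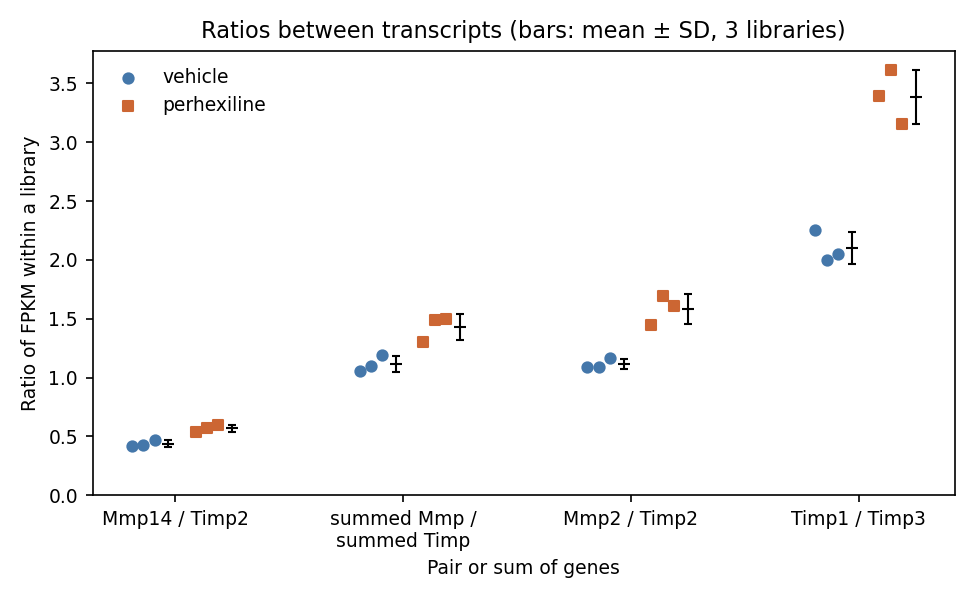
Ratios of FPKM within each library for Mmp14 to Timp2, the summed Mmp to the summed Timp genes, Mmp2 to Timp2 and Timp1 to Timp3; circles are vehicle and squares perhexiline libraries, and bars give the mean ± SD of 3 libraries. In all 4 ratios the perhexiline libraries lie above the vehicle libraries, with the Timp1 to Timp3 ratio at 2.10 ± 0.13 and 3.39 ± 0.23.

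The calls rested on few libraries. Timp1 was called in 4 of the 6 fits without 1 library and missed it where replicate 2 of vehicle (adjusted p = 0.0566) or of perhexiline (0.0560) was left out. Mmp2 and Mmp3 were each called in 2 of the 6, those without vehicle replicate 3 or perhexiline replicate 1, and not in the other 4 (adjusted p from 0.102 to 0.113 and from 0.0638 to 0.0826). Timp3 was called in 1 of the 6, without perhexiline replicate 1, with adjusted p up to 0.130 in the others, and also lost the call under total-fragment scaling (0.0768). Mmp14 passed once vehicle replicate 3 was left out (0.04995). When all genes were tested, low ones included, Mmp2 (0.0817), Mmp3 (0.0546) and Timp3 (0.0816) lost their calls and Timp1 kept its own (0.0436).

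Few other genes of the same protease families were tested, and none passed as higher, beside 3.55% higher and 3.11% lower among all tested genes. With so few tested, these counts do not set the families apart from those shares. Of 17 further MMP genes in the table, 7 were tested, 1 fell and none rose, with a median log2 difference of -0.06, beside 0.01 over all tested genes. The fall was that of Mmp15, a membrane-bound MMP, from 16.4 ± 2.04 to 11.04 ± 1.63 FPKM (limma adjusted p = 0.0471). Mmp12, the elastase of macrophages, named after its values were seen, stood at 12.4 and 7.39 FPKM (adjusted p = 0.0527). Of 17 further ADAMTS genes, 11 were tested, Adamts12 fell from 5.57 ± 0.332 to 4.14 ± 0.155 FPKM (adjusted p = 0.0443) and none rose, with a median of -0.06. Mmp15 and Adamts12 lost their calls in all 6 fits without 1 library, with adjusted p from 0.0511 to 0.137.

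The remaining inhibitors and the ADAM proteases gave no call with all 6 libraries. Among 3 tested inhibitors of other kinds, Reck, which holds MMPs in check at the membrane, stood at 5.83 ± 0.363 and 5.82 ± 0.524 FPKM, and the proteoglycan Spock2 at 4.96 ± 0.985 and 3.87 ± 0.387. The third, Tfpi2, a secreted serine protease inhibitor, named after its values were seen, stood at 0.723, 0.650 and 0.474 FPKM with vehicle and 1.56, 2.78 and 1.33 FPKM with perhexiline. Its groups did not overlap, and it reached 1 FPKM only with perhexiline, so it passed the filter through the group in which it was high (log2 difference 0.81, limma adjusted p = 0.0534). Of the 3 inhibitors 1, Tfpi2, passed as higher with a pseudocount of 0.1, under total-fragment scaling and with limma-voom. Timp4 was under the filter, at 0.306 and 0.211 FPKM on average. Of 9 tested membrane-anchored ADAM proteases none passed, and Adam19 and Adam33, the most abundant, stood at 106 ± 5.09 and 104 ± 6.27 FPKM and at 64.1 ± 21.5 and 37.1 ± 7.56 FPKM. Adam33 lay at 39.6 FPKM in vehicle replicate 3 and at 73.1 and 79.8 FPKM in the other vehicle libraries, and passed without that library (adjusted p = 0.0245).

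The plasminogen system, here serine proteases that activate MMP precursors with receptors and inhibitors, changed in part. Of 8 tested genes 3 rose and 1 fell, with a median of 0.24, beside 3.55% higher and 3.11% lower among all tested genes. Plau was the only protease called and fell, while a receptor and serine protease inhibitors rose. Plau, the urokinase activator, went from 3.16 ± 1.07 to 1.05 ± 0.272 FPKM, while Plaur, its receptor, went from 6.27 ± 0.914 to 8.96 ± 0.437. Its inhibitor Serpinb2 stood at 1.67, 1.80 and 1.64 FPKM with vehicle and 3.41, 8.10 and 4.59 FPKM with perhexiline, and the serine protease inhibitor Serpina3n went from 1.67 ± 0.355 to 3.46 ± 0.397 FPKM. These calls had limma adjusted p from 0.0258 to 0.0438. None of the 4 was called without vehicle replicate 1 or 2, without perhexiline replicate 2 or 3, or with no filter on low values.

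Genes of MMP activation and clearance moved little as a list. Of 14 tested, 2 passed, both higher (median 0.01), beside 3.55% higher and 3.11% lower among all tested genes. Sdc4, a cell-surface heparan sulfate proteoglycan, went from 39.0 ± 0.929 to 55.4 ± 4.16 FPKM (limma adjusted p = 0.0115), and Cd63, a tetraspanin that binds TIMP1 at the cell surface, from 534 ± 9.52 to 661 ± 24.7 FPKM (adjusted p = 0.0207).

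Matrix proteins that these enzymes cut held calls in both directions. Of 20 tested, 1 rose and 2 fell, with a median of 0.01, beside 3.55% higher and 3.11% lower among all tested genes. With so few tested, these counts do not set the list apart from those shares. The collagen-binding proteoglycan Dcn went from 93.1 ± 8.90 to 134 ± 3.75 FPKM, the fibrillar collagen gene Col3a1 from 195 ± 4.93 to 153 ± 11.1 and elastin, Eln, from 75.9 ± 3.02 to 47.0 ± 10.1, with limma adjusted p from 0.0138 to 0.0340. None of the list was called without vehicle replicate 1 or perhexiline replicate 3, 1 rose and none fell without vehicle replicate 2 or when low genes were included, and 1 fell and none rose without perhexiline replicate 2. Their levels in a sample say nothing of how much protein was cut.

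Among signals known to drive Mmp3 or Timp1, 11 of the 21 tested passed as higher and none as lower (median 0.27). Over all tested genes 3.55% were higher and 3.11% lower. The list of signals was put together with earlier results of these libraries known, so its direction is not independent evidence. The cytokines Il6 and Lif went from 0.502 ± 0.274 to 3.28 ± 0.856 and from 3.21 ± 0.373 to 8.32 ± 2.42 FPKM. Il6 was under 1 FPKM in all 3 vehicle libraries (0.209, 0.751 and 0.548 FPKM) and, as Mmp3, passed the filter only through the perhexiline libraries, so its place among the rises is a description. Osmr, the receptor for oncostatin M, a cytokine of the same family, stood at 30.3, 27.4 and 28.3 FPKM with vehicle and 38.6, 38.5 and 38.5 FPKM with perhexiline, and the AP-1 subunit Jun went from 37.6 ± 1.12 to 49.5 ± 3.30 FPKM. Also higher were the AP-1 genes Jund (79.5 to 105 FPKM), Fosl1 (3.77 to 6.29) and Fosl2 (15.97 to 27.6). Stat3, Rela, Nfkb1 and Runx1 were higher too, and all 7 were named after their values were seen. The AP-1 genes Junb (42.0 and 66.0 FPKM, limma adjusted p = 0.0631) and Fos (11.1 and 13.3, 0.615) did not pass. Neither did the ETS genes Ets1 (13.9 and 13.3 FPKM, limma adjusted p = 0.507) and Ets2 (16.2 and 19.7, 0.0980). Of the 26 genes on the list, 5 were under the filter and not tested. They were Fosb (1.24 and 0.724 FPKM), Il1a (0.366 and 0.213), Il1b (0.249 and 0.113), Osm (0.0771 and 0.156) and Tnf (0 and 0.0114). These genes, too, were named after their values were seen. The rises had limma adjusted p from 0.0118 to 0.0449. They numbered 1 without perhexiline replicate 3, 2 without perhexiline replicate 2 and 3 without vehicle replicate 1 or 2. They numbered 7 without vehicle replicate 3, where 1 gene of the list passed as lower, and 2 with no filter on low values. Of the 15 called genes that the naming rule took from these lists, Il6 and Sdc4 were called in all 6 fits without 1 library, and the other 13 lost the call in 1 to 6 of them. Genes added after their values were seen are not in that count.

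**Figure D4:**
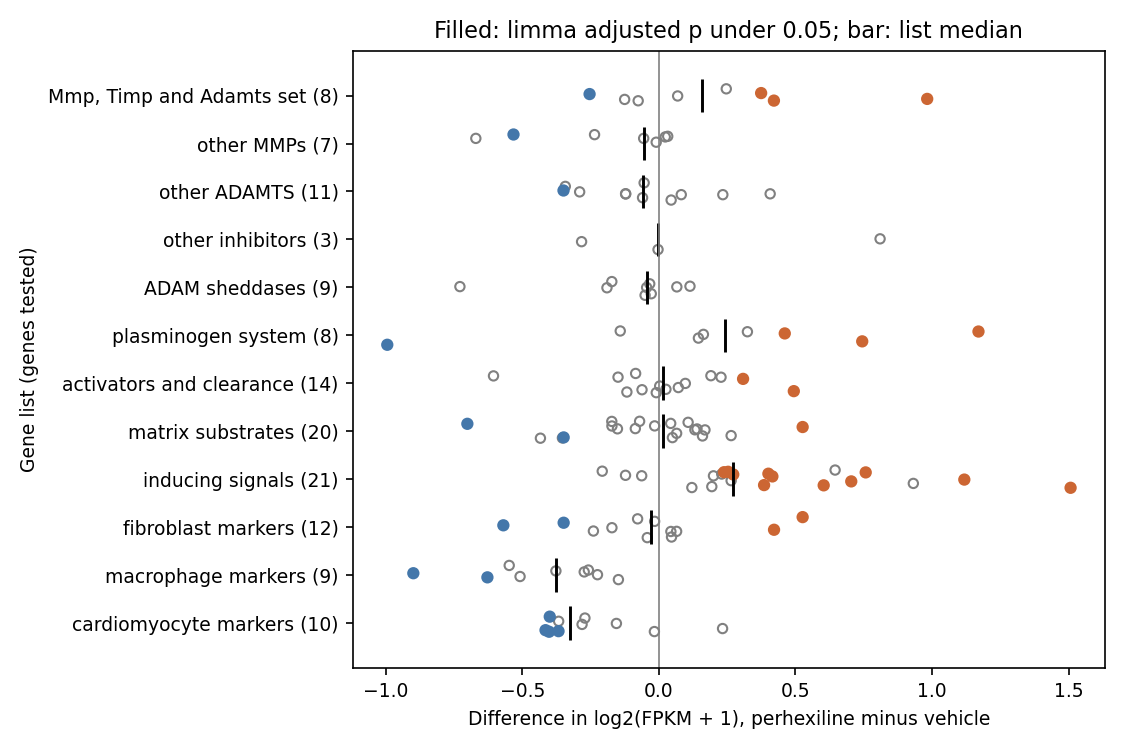
Difference in log2(FPKM + 1), perhexiline minus vehicle, for the tested genes of each list; filled points passed a limma adjusted p of 0.05 and black bars are list medians. The inducing signals have 11 filled points, all above 0, while the other MMP and ADAMTS genes have 1 each, below 0. Among all tested genes 3.55% were higher and 3.11% lower.

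Over the 6 libraries, the 5 genes most like Timp1 by Pearson r of log2(FPKM + 1), among 8547 ranked, were Exosc1, Smim14, Nol12, Rpl10 and E2f4, with r from 0.988 to 0.996. Mmp2 ranked 967 with r = 0.80 and Mmp14 ranked 2112 with r = 0.62, while Timp2 (-0.80), Adamts1 (-0.66) and Timp3 (-0.88) ran the other way. Libraries share their group and depth across genes, so these values describe likeness in 6 libraries and carry no test.

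Markers of the labelled cell type were abundant, with the troponin gene Tnnt2 at 3658 ± 282 and 3030 ± 206 FPKM and the natriuretic peptide gene Nppa at 2883 ± 700.1 and 3338 ± 467 FPKM, and markers of other cells were present. For each marker count that follows, the shares over all tested genes were 3.55% higher and 3.11% lower. Of 10 tested cardiomyocyte markers 4 fell and none rose (Myh6, Actn2, Tnni3 and Myl2). None of these 10 was called without vehicle replicate 1 or 2, without perhexiline replicate 2 or 3, or when low genes were included. Fibroblast markers, all 12 tested, summed to 1105 to 1146 FPKM with vehicle and 1060 to 1116 FPKM with perhexiline. Of these 2 rose and 2 fell: Dcn rose, as did Pdgfra, from 33.2 to 44.8 FPKM, and Col3a1 and Thy1 fell. No fibroblast marker was called without vehicle replicate 1, perhexiline replicate 2 or perhexiline replicate 3, and 1 was, as higher, without vehicle replicate 2 or when low genes were included. Macrophage markers summed to 97.0 to 102 FPKM with vehicle and 53.1 to 81.2 FPKM with perhexiline. Of 9 tested, 2 were lower and all 9 differences lay below 0, while 7120 of all 13460 tested genes lay above 0. The 2 were Mrc1 (5.01 and 2.24 FPKM, limma adjusted p = 0.0221) and C1qa (3.59 and 1.94, 0.0451), and 4 were lower with limma-voom. Lyz2 and Cd68, the most abundant, stood at 48.2 ± 2.82 and 33.3 ± 8.34 FPKM and at 23.2 ± 1.78 and 17.8 ± 3.19 FPKM (adjusted p = 0.0955 and 0.116). Of the 9, Ptprc reached 1 FPKM only with vehicle and so passed the filter through the group in which it was high. The 2 macrophage calls were lost without vehicle replicate 1 or 2, without perhexiline replicate 2 or 3, and when low genes were included. Smooth muscle markers, 7 tested, summed to 1236 to 1726 FPKM with vehicle and 1110.1 to 1336 FPKM with perhexiline, with a median log2 difference of -0.37 and 6 of 7 differences below 0. None of the 7 passed, against 4 lower with limma-voom and 2 lower without vehicle replicate 3 or perhexiline replicate 1. Acta2, smooth muscle actin, stood at 697 ± 149 and 464 ± 72.0 FPKM, with overlapping libraries, and Tagln at 199 ± 14.9 and 155 ± 22.8 FPKM, without overlap (adjusted p = 0.0871 and 0.0763). Des, with Acta2 the most abundant of the 7, stood at 590 ± 84.5 and 552 ± 30.9 FPKM, with overlapping libraries (limma adjusted p = 0.651). The 1 difference above 0 was that of Rgs5, at 0.776 and 1.29 FPKM (adjusted p = 0.250). Of 4 tested endothelial markers none passed. The most abundant, Kdr and Egfl7, stood at 8.71 ± 1.17 and 9.70 ± 0.550 FPKM and at 4.05 ± 0.265 and 4.40 ± 0.439 FPKM. Of 8 neutrophil markers none reached the filter, and S100a9 and Ltf were listed at 0 in all libraries. Camp and S100a8, the most abundant, stood at 0.760 and 0.786 FPKM and at 0.244 and 0.0511 FPKM on average. Ngp stood at 0.0419 and 0.236 FPKM, higher with perhexiline without overlap. Fewer cells of a type and less RNA per cell cannot be told apart here, and the part of these markers in the changes of Mmp2, Mmp3, Timp1 and Timp3 was not tested.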

How the data were processed

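Poly(A) RNA was read as pairs of 150 bases in 6 libraries, 3 per group. The authors deposited 1 table of FPKM values, so named per the file headers. HISAT2 2.0.5 and DESeq2 are named in the submitters' processing notes with no role, and no build, annotation or counter was named in the labels or headers. FPKM times gene length gave whole multiples of 1 step per library for 100% of positive values (tolerance 0.01), taken as 13616252 to 16702523 fragments per library, which makes a single fragment on 1 kilobase 0.0574 to 0.0727 FPKM. The scaling behind the deposited FPKM was not the fragment total. Fragment totals relative to it ran from 0.972 in perhexiline replicate 2 to 1.035 in vehicle replicate 1, around a common mean. Size factors from median ratios between libraries differed from it by -0.50% to 0.94%. Each library differed from its replicates by more than sampling noise (chi-square per degree of freedom 4.44 to 7.63).

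Genes at 1 FPKM or more in 3 or more libraries were tested together with limma 3.58.1 in R 4.3.3 on log2(FPKM + 1) (trend, two-sided, group as the only term), after a check on simulated data. Folds are ratios of mean FPKM. Named were all 10 genes, up to 4 called genes of each list by adjusted p (the 2 most abundant where none was), the 2 most abundant markers of each cell type, and the 5 genes most like Timp1. Named after their values were seen were Mmp12, Timp4, Tfpi2, Ptprc, Mrc1, C1qa, Tagln, Rgs5, Pdgfra, Thy1, Ngp, S100a9, Ltf, 4 cardiomyocyte markers and the named inducing signals other than Il6, Lif, Osmr and Jun. The genes, lists, motifs and tests were chosen with earlier results of these data known. Promoters are RefSeq's.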

Additional observations from a re-analysis of the deposited data

How the results depend on the processing

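Of all tested genes 896 passed (53.3% higher), against 162 with no filter on low values, 1562 with limma-voom on recovered fragments, 173 with the replicate block and 87 to 841 in the 6 fits without 1 library. The higher share was 42.4% under upper-quartile and 70.7% when libraries were scaled to total fragments, with medians of -0.01 and 0.06 (log2). The called genes of the set, 4 of 8, numbered 1 (Timp1) with no filter on low values, 2 (Mmp2 and Timp1) with the replicate block and 0 to 4 without 1 library. They numbered 3 or 4 with a pseudocount of 0.1, a mean FPKM of at least 5 (Mmp3 left out), either scaling, limma-voom, and limma-voom with no filter, which was added after seeing the data. The replicate numbers showed no pairing over all tested genes: same-numbered libraries had deviations that correlated at -0.10 to -0.02, and 0 of 6 libraries correlated best with their own number. With 3 libraries per group this cannot show whether same-numbered libraries shared a culture, which the labels did not state. The differences between inhibitors kept their direction in all fits run. Mmp9 ranged from -0.010 to 0.161 without 1 library. Reck and Adam19, near 0, changed sign under total-fragment scaling (0.045 and 0.028) and without 1 library (-0.047 to 0.061 and -0.077 to 0.0012). The causes were not tested. Depth limits Mmp3, Mmp9 and Adamts4 most.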
